A study of Sus scrofa with 20 samples.

Results

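The sinusoidal endothelial scavenger genes are 8 genes of the liver sinusoid, most with products that take up material from the blood. They are STAB1, STAB2, LYVE1, MRC1, FCGR2B, CLEC4G, OIT3 and CD36. Their rows were found by gene name, and 6 of the 8 had a row by that name among the 25764 genes of the expression table. FCGR2B and CD36 were not analysed here. All 6 genes with a row passed the filter on low values, which asks for 10 normalized counts or more in 2 or more libraries.

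The liver sinusoid is lined by endothelial cells that are perforated and rest on little basement membrane. These cells bear receptors for hyaluronan, mannose-rich glycoproteins, oxidised lipoproteins and immune complexes, take them in through clathrin-coated vesicles and break them down in lysosomes. Endothelium of other vascular beds shares the general endothelial genes but carries few of these receptors, whereas Kupffer cells, the macrophages of the sinusoid, carry some of them as well. Lymphatic endothelium is another site of LYVE1 and of stabilins.

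The study placed porcine biliary tree stem cells (pBTSCs) beside human biliary tree and liver cells of several stages. Its reporting summary says that non-parenchymal cells of pig liver were left out of that comparison. The series holds sorted pig liver cells beside pBTSCs, with poly(A) RNA sequenced from both, and they are compared here. The 20 libraries of Sus scrofa comprised 5 of pBTSCs, whose labels name the gallbladder, and 15 of liver cells sorted by surface antigen: 5 CD45+, 4 CD45-/EpCAM+, 2 CD45-/EpCAM-, 2 CD31+ and 2 CD146+. CD45 is a leukocyte antigen, EpCAM an epithelial antigen, and CD31 and CD146 are endothelial antigens. For its genetic studies the study describes stem cell preparations selected by surface antigen and then left to form organoids. By its account these also hold early mesenchymal cells, namely angioblasts and precursors of endothelial and stellate cells. The share of each cell type in the pBTSC libraries is not given in the sources used here. According to the study's supplementary information the pBTSC libraries S2, S7 and S11 came from newborn piglets that carry a histone H2B-GFP transgene at the ACTB locus, expressed in every tissue, while S15 and S20 came from wild-type newborn piglets. The donor, age and line of each liver library are not given in the sources used here, nor is any treatment. The supplementary information lists an RNA integrity number for every pBTSC library except S15, lowest in S7 and highest in S20. It lists none for the liver libraries. Whether RNA integrity has a part in the differences given below was not tested. The 5 pBTSC libraries came from different piglets by the same supplementary information, while no source used here says whether liver libraries of 1 group came from separate animals, so p-values measure the spread between these libraries, which may in part be technical.

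The label of each library is a number, used here as its name, and these numbers fall into 5 runs of neighbours, 2 to 5, 7 to 9, 11 to 14, 15 to 19 and 20 to 23, each starting with a pBTSC library. The labels do not say what a run stands for. Depth was estimated at 21100000 to 77700000 reads in 17 libraries, and at 801477 reads in S13 (CD45-/EpCAM+), 1567630 in S15 (pBTSC) and 455055 in S22 (CD146+). A value of 3 reads, taken as the floor of detection, was 77.1 normalized counts in S13, 37.7 in S15 and 156 in S22, and at most 4.30 in the others. These floors cover counting error only. The sorting antigens followed the labels of the liver libraries only in part. PTPRC, which encodes CD45, had a mean of 1454 ± 841 (SD) normalized counts over the 5 CD45+ libraries and of 1825 ± 1148 (SD) over the 4 CD45-/EpCAM+ libraries, and EPCAM of 1623 ± 505 and 1496 ± 316 over the same libraries. PECAM1, which encodes CD31, was higher in the CD31+ and CD146+ libraries than in the other liver groups, by 1.06 on the log2 scale (limma, adjusted p = 0.0223), and MCAM, which encodes CD146, by 0.86 (adjusted p = 0.0219), under the threshold on size. Within library numbers 16 to 23 these differences were -0.03 and 0.07, and neither passed (limma, adjusted p = 0.994 and 0.990). EPCAM averaged 790 normalized counts in the CD45-/EpCAM- libraries, a log2 difference of -1.01 from the CD45-/EpCAM+ libraries that did not pass (limma, adjusted p = 0.102). Albumin transcripts, the product of hepatocytes, were at 513084 normalized counts or more in every liver library, CD45+ libraries included. Liver libraries of different sorts within a run had a median correlation across genes of 0.9938 over 12 pairs, against 0.953 over 15 pairs of the same sort from different runs, both among libraries of at least 2000000 reads. Genes are not independent replicates, and these correlations are a description.

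The 6 genes were all higher in liver than in pBTSCs, but by very different amounts. STAB2, CLEC4G and OIT3 were low in most pBTSC libraries, though mostly above the floor of detection, and differed from liver by more than 100-fold. MRC1 was about 12-fold higher in liver, and STAB1 and LYVE1 about 3-fold. With limma on log2(normalized count + 1) and Benjamini-Hochberg adjustment, 6 of 6 were called higher in the mean of the 5 liver groups at an adjusted p under 0.05 and a log2 fold change above 1. Among all 15576 genes tested 26.6% were called, and 10.5% were called higher in liver. In bulk RNA, fewer cells of a type and less RNA per cell cannot be told apart.

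STAB2 encodes stabilin-2, the main hyaluronan clearance receptor of the sinusoid. It stood at 40.6 normalized counts in pBTSC library S2, 77.1 in S7, 153 in S11, 138 in S15 and 987 in S20. Across the 15 liver libraries it ranged from 5300 in S5 through a median of 23083 to 60522 in S13. Every liver library was therefore above every pBTSC library, and S20 was far above the other 4 pBTSC libraries. The log2 difference, liver minus pBTSC, was 7.19 ± 0.65 (SE), a 146-fold change (limma adjusted p = 1.0e-07). By group mean, STAB2 was at 32287 in CD31+, 26967 in CD45-/EpCAM+, 25398 in CD146+, 24173 in CD45+, 22753 in CD45-/EpCAM- and 279 in pBTSC libraries, and no neighbours within the liver part of that order differed beyond their spread.

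CLEC4G encodes the C-type lectin LSECtin, which binds mannose- and N-acetylglucosamine-rich glycans. Its pBTSC values were 7.45 in S2, 29.7 in S7, 31.2 in S11, 37.7 in S15 and 330 normalized counts in S20. The value in S15 corresponds to 3 reads and lies at the floor of that library. The liver libraries ran from 2656 in S4 through a median of 7810 to 11393 in S12, so the tissues did not overlap. The log2 difference was 7.40 ± 0.57 (SE), or 168-fold (limma adjusted p = 1.6e-08). CD31+ libraries had the highest group mean, 8736 normalized counts, and CD45-/EpCAM+ libraries the lowest of the liver groups, 6059, with the other 3 between them.

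OIT3 encodes a secreted protein with a zona pellucida domain that is found mainly in liver. It was at 12.5 normalized counts in S2, 33.6 in S7, 47.1 in S11, 25.1 in S15 and 318 in S20. In S15 this amounts to 2 reads, under the floor. Liver libraries ran from 3483 in S8 through a median of 6694 to 15321 in S13 and did not overlap the pBTSC libraries. The log2 difference was 7.25 ± 0.55 (SE), a 152-fold change (limma adjusted p = 1.2e-08). The liver group means lay between 7017 in CD146+ and 8131 in CD31+ libraries, a gap smaller than the SD within the CD45+ group.

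MRC1 encodes the mannose receptor CD206, which removes collagen fragments and mannose-ended glycoproteins and is also made by macrophages. The pBTSC libraries held 813 normalized counts in S2, 1038 in S7, 883 in S11, 1733 in S15 and 2038 in S20. Liver libraries ranged from 5491 in S8 through a median of 18863 to 27973 in S13. MRC1 was thus well detected in every pBTSC library, yet again with no overlap between the tissues. The log2 difference was 3.58 ± 0.40 (SE) (limma adjusted p = 1.3e-06).

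STAB1 encodes stabilin-1, the companion of stabilin-2, which takes up modified lipoproteins and matrix fragments and is shared with macrophages. It was at 3524 normalized counts in S2, 4373 in S7, 3923 in S11, 5881 in S15 and 4523 in S20, the steadiest of the 6 genes among pBTSCs. The lowest liver value, 5092 in S8, fell below the highest pBTSC value, and the liver median was 13353 with a maximum of 28642 in S13. The log2 difference was 1.55 ± 0.34 (SE), or 2.92-fold (limma adjusted p = 0.00121).

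LYVE1 encodes a hyaluronan receptor that marks sinusoidal and lymphatic endothelium and some tissue macrophages. Its pBTSC values were 625 in S2, 1424 in S7, 1055 in S11, 1482 in S15 and 827 normalized counts in S20. The liver libraries started at 1461 in S22, just below the highest pBTSC library, and reached a median of 3246 and a maximum of 5732. The log2 difference was 1.63 ± 0.35 (SE), or 3.09-fold (limma adjusted p = 9.7e-04). Complete separation, with all 15 liver libraries above all 5 pBTSC libraries, was thus seen in 4 of the 6 genes, against 9.21% of all genes tested.

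**Figure D1:**
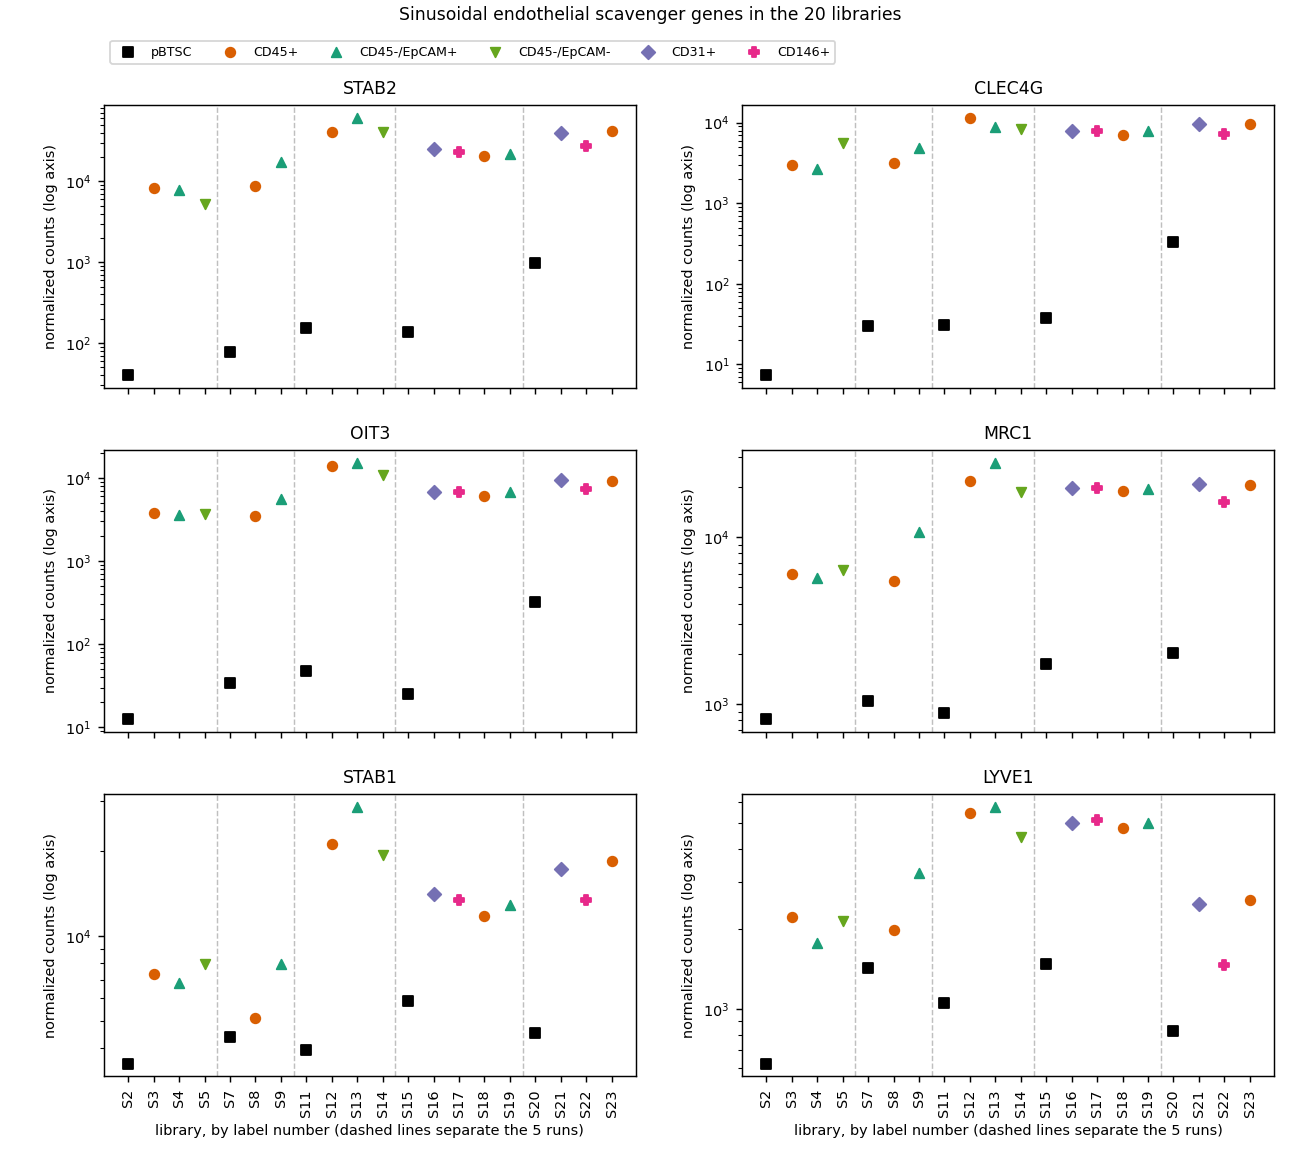
Normalized counts (log axis) of the 6 scavenger genes in the 20 libraries, ordered by label number, with colour and shape for the sorted group and dashed lines between the 5 runs. The pBTSC library of each run lies below the liver libraries of that run, by a wide margin for STAB2, CLEC4G and OIT3, and liver libraries of a run sit close together whatever their sort.

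Taken within a run, the pBTSC library can be set against the liver libraries with neighbouring numbers. STAB2 in pBTSCs amounted to 0.326% to 2.70% of the liver mean of the run, with a median of 0.586%. CLEC4G lay between 0.200% and 3.74% and OIT3 between 0.339% and 3.66%. In all 3 genes the highest share was that of S20. MRC1 in pBTSCs came to 3.88% to 13.5% of liver, LYVE1 to 20.3% to 54.5% and STAB1 to 17% to 67.1%. The 6 genes therefore kept the same division in each of the 5 runs, into a set at 3.74% of liver or less and a set at 3.88% or more. These bounds lie close together and come from different runs, CLEC4G in S20 and MRC1 in S11. For comparison, PECAM1, the general endothelial adhesion molecule CD31, stood in pBTSCs at 115% to 304% of the liver mean of its run, and VWF, the clotting factor carrier of endothelium and platelets, at 273% to 910%. CD34 at 140% to 631% and EMCN at 155% to 394%, also general endothelial genes, were above the liver mean in every run. CDH5 at 73.8% to 204% and the angiopoietin receptor TEK at 65.2% to 349% lay on both sides of it. The VEGF receptor KDR was at 36.8% to 166%, a range that overlaps those of LYVE1 and STAB1.

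Liver-cell transcripts also varied among the pBTSC libraries. ALB was at 25087 normalized counts in S20 and 19832 in S15, and at 287 to 376 in S2, S7 and S11, which are 1.54%, 1.28% and at most 0.0533% of the liver mean of the run. S15 and S20 came from wild-type piglets and S2, S7 and S11 from H2B-GFP piglets. Whether line has a part in this split was not tested. CLEC4F, a lectin of Kupffer cells, was at 573 in S20 and between 8.39 and 81.5 in the other 4 libraries. S15 was close to S20 in its share of ALB but had STAB2 at 0.607% of liver, against 2.70% in S20. Whether the liver transcripts of S20 have a part in its higher STAB2, CLEC4G and OIT3 was not tested. Without S20 the log2 differences, liver minus pBTSC, were 7.88 for STAB2, 8.15 for CLEC4G and 7.96 for OIT3, all larger than with it.

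**Figure D2:**
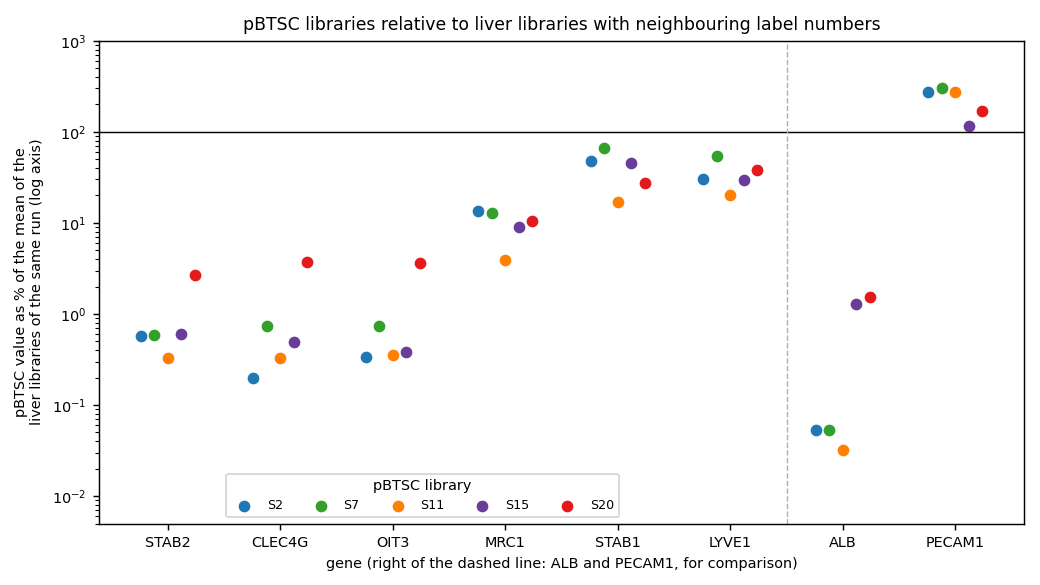
Each point gives 1 pBTSC library as a percentage of the mean of the liver libraries in its run (log axis), for the 6 scavenger genes and, right of the dashed line, ALB and PECAM1. STAB2, CLEC4G and OIT3 lie near or below 1% except in S20, MRC1 between 3.88% and 13.5%, and STAB1 and LYVE1 between 17% and 67.1%, while PECAM1 lies above 100%.

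The same direction was found against each liver sort taken alone, comparisons that share the 5 pBTSC libraries. Against the endothelial sorts, the mean of CD31+ and CD146+, 6 of 6 genes were called higher (8.75% of all genes were called higher, 21.4% called in all), with log2 differences from 1.59 for LYVE1 to 7.65 for CLEC4G. Against CD45-/EpCAM+ cells, which share the EpCAM label with biliary cells, 6 of 6 were called higher (10.3% of all genes, 25.1% called in all), from 1.44 for STAB1 to 7.21 for OIT3. CD45-/EpCAM- cells gave 6 of 6 (16.6% of all genes called higher, 36.6% in all), from 1.50 for STAB1 to 7.40 for CLEC4G. CD45+ cells gave 6 of 6 (9.54% higher, 20.6% in all), from 1.34 for STAB1 to 7.20 for CLEC4G.

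Against single sorts the calls of STAB1 and LYVE1 rested on few libraries. With libraries rescaled to the same total, STAB1 was no longer called against CD45-/EpCAM+ (log2 difference 1.13, adjusted p = 0.0617), CD45-/EpCAM- (1.02, adjusted p = 0.163) or CD45+ cells (1.09, adjusted p = 0.0619), and LYVE1 was not against CD45-/EpCAM- cells (1.10, adjusted p = 0.141), all by limma. STAB1 also lost its call against CD45-/EpCAM+ cells without S13 (1.02, limma adjusted p = 0.0593) and without all 3 shallow libraries (1.12, limma adjusted p = 0.0588), and against CD45+ cells without S12 (1.11, limma adjusted p = 0.0512). Against CD45-/EpCAM- cells, leaving out S14 gave 0.86 for STAB1 (limma adjusted p = 0.324) and 1.06 for LYVE1 (0.245), and leaving out S2 gave 1.42 (0.0508) and 1.40 (0.0516), so that neither was called. LYVE1 lost its call against the endothelial sorts without S16 (1.34, limma adjusted p = 0.0606) and without S17 (1.14, limma adjusted p = 0.0612).

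**Figure D3:**
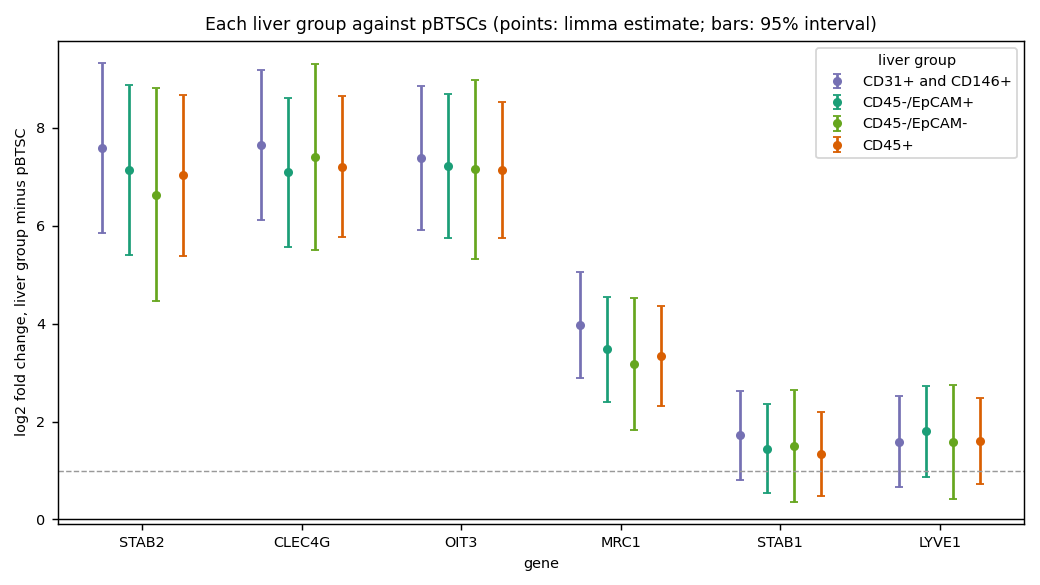
Log2 fold change of each of the 6 scavenger genes, liver group minus pBTSC, as limma estimates with 95% intervals; the dashed line marks a log2 fold change of 1. The estimates fall into the same 3 levels in every liver group, between 6.63 and 7.65 for STAB2, CLEC4G and OIT3, between 3.17 and 3.97 for MRC1, and between 1.34 and 1.80 for STAB1 and LYVE1.

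General endothelial genes did not share this pattern. Of 18 pan-endothelial markers 0 were called higher in liver, 4 were called lower and 14 did not pass, with a median log2 difference of -0.31, against -0.11 over all genes and 5.39 over the 6 scavenger genes. The 4 lower in liver were VWF (-2.30), the sialomucins CD34 (-1.62) and EMCN (-1.54), and PECAM1 (-1.07). Against the endothelial sorts alone, VWF (-1.96) and EMCN (-1.07) were called lower. CD34 (-0.68, limma adjusted p = 0.228) and PECAM1 (-0.43, limma adjusted p = 0.287) were not. CDH5, the cadherin of endothelial junctions, averaged 15483 ± 1559 (SD) normalized counts over the 5 pBTSC libraries and 15476 ± 6590 (SD) over the 15 liver libraries. The summed level of the list was 134044 to 176172 normalized counts in pBTSC libraries and 56720 to 168587 in liver libraries. Relative to the mean log2 level of that list in the same library, the scavenger genes were higher in liver by 7.76 (CLEC4G), 7.67 (OIT3), 7.60 (STAB2), 3.97 (MRC1), 2.09 (LYVE1) and 1.94 (STAB1). Of 4 lymphatic markers, MMRN1 (-2.10), a protein of lymphatic endothelium and platelets, and the chemokine CCL21 (-1.52) were called lower in liver, and PROX1 (0.60) and RELN (0.17) did not pass.

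Other genes of sinusoidal endothelium mostly went with the scavenger genes. Of 15 tested, 10 were called higher in liver, 1 lower and 4 did not pass, with a median of 1.61. The nuclease DNASE1L3 was higher by 4.25, the endocytic recycling protein EHD3 by 3.48, the podoplanin receptor CLEC1B by 3.42 and the chemokine scavenger GPR182 by 3.41, all log2 differences. GATA4, a transcription factor needed for sinusoidal identity, was higher by 1.61, and CRHBP, which binds corticotropin-releasing hormone, was lower (-1.70).

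Receptors of other scavenger families were split. Of 22 tested, 9 were called higher, 5 lower and 8 did not pass. The hepatocyte asialoglycoprotein receptor subunits ASGR1 (7.72) and ASGR2 (6.61) and the macrophage receptors TIMD4 (5.16) and MARCO (4.29) were higher in liver. COLEC12 (-3.12), CD209 (-3.10) and MRC2 (-2.86), the last a collagen receptor of fibroblasts and a paralogue of MRC1, were lower. The genes of uptake and lysosomal breakdown gave 8 higher, 0 lower and 12 not passing of 20. The 4 with the largest differences were the proteases CTSL (2.55), CTSS (2.13), LGMN (2.01) and CTSB (2.0), whereas CLTC, the heavy chain of clathrin, had a log2 difference of 0.14 and did not pass.

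Most macrophage markers and all 8 hepatocyte markers differed in the same direction as the scavenger genes, while most of the called fibroblast and lymphocyte markers differed in the opposite one. Of 10 macrophage markers, 9 were called higher in liver, led by CLEC4F (6.97), ADGRE1 (4.36), C1QA (3.37) and C1QC (3.01), and LYZ was lower (-2.09). Their summed level was 5502 to 16160 normalized counts in pBTSC and 28304 to 151882 in liver libraries. Relative to the mean log2 level of the macrophage list, STAB2, CLEC4G and OIT3 were still higher in liver by 4.53, 4.69 and 4.60 and MRC1 by 0.89, while LYVE1 (-0.98) and STAB1 (-1.13) were lower. Hepatocyte markers were higher in 8 of 8, among them FGB (9.49), APOC3 (9.49), ALB (9.33) and TTR (8.63). Of 6 fibroblast and stellate markers, LRAT, the retinol-storing enzyme of stellate cells, was higher by 6.71, and 5 were lower, among them DCN (-3.73), COL1A1 (-3.57) and COL3A1 (-3.41). Of 8 lymphocyte markers 1 was higher, NKG7 (1.02), and 4 were lower, CD79B (-2.33), CD2 (-2.30), CD3E (-1.84) and CD3D (-1.81). HBB (-2.57) and ALAS2 (-2.22) were lower among 5 platelet and erythroid markers and ADIPOQ (-3.15) among 2 adipocyte markers. In this mean of the 5 liver groups none was higher in either list as deposited. Against CD45-/EpCAM- cells alone, however, HBB (2.72, limma adjusted p = 0.0387) and HBM (4.05, limma adjusted p = 0.0305) were called higher. ALAS2 (2.22) and the macrophage marker LYZ (1.26) did not pass against that sort. NKG7 was not called after rescaling to the same total or without the 3 shallow libraries, and without these libraries 1 platelet or erythroid and 1 adipocyte marker were called higher. No marker of the pan-endothelial, lymphatic, macrophage or hepatocyte lists was listed at 0 in any library. How much of the scavenger gene differences these cell types contribute was not tested.

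The counts for scavenger, other sinusoidal and pan-endothelial genes kept their direction under other scalings. With libraries rescaled to the same total, the median of all genes moved from -0.11 to -0.42, and the scavenger genes were still called higher in 6 of 6, other sinusoidal genes in 9 of 15 with 2 lower, and pan-endothelial markers in 0 of 18 with 4 lower. Rescaling by median ratios gave 6 of 6, 10 of 15 with 1 lower, and 0 of 18 with 4 lower. Of all calls, 39.6% were higher in liver as deposited and 26.3% after rescaling to the same total. Without the 3 shallow libraries the counts were 6 of 6, 10 of 15 with 1 lower, and 0 of 18 with 4 lower.

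**Figure D4:**
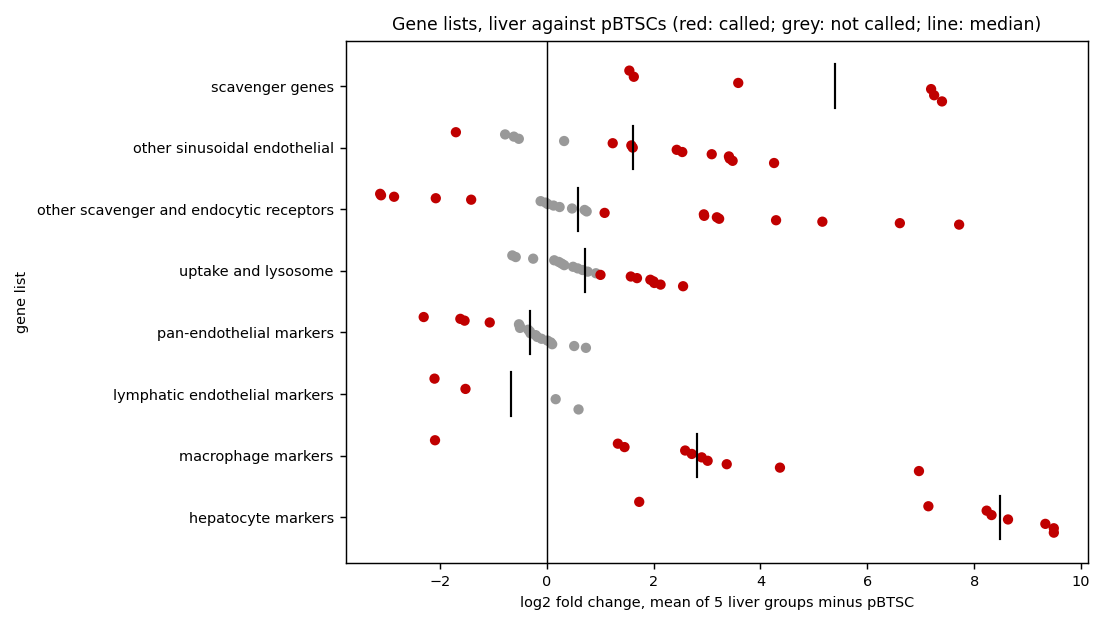
Log2 fold change, mean of the 5 liver groups minus pBTSC, for each tested gene of 8 lists, with called genes in red, genes not called in grey and the median as a black line. The 6 scavenger genes lie between 1.55 and 7.40, the pan-endothelial markers between -2.30 and 0.73, and the hepatocyte markers between 1.73 and 9.49.

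Within liver, no scavenger gene was called between the endothelial sorts and the rest. In CD31+ and CD146+ libraries against the other 3 liver groups, 0 of 6 were called (6.97% of all genes were), with log2 differences from -0.07 for LYVE1 to 0.65 for STAB2 and limma adjusted p from 0.310 to 0.914. PECAM1 and CD34 were called higher in that comparison, by 1.06 and 1.56, and the erythroid genes HBM, HBB and ALAS2 were called lower (-5.05, -4.09 and -2.90). All CD31+ and CD146+ libraries carry numbers 16 to 23, however, so that this comparison mixes sort with run. Within those numbers 0 of 6 scavenger genes and 0% of all genes were called, and 20 genes, 0.128%, had an unadjusted p under 0.05 by limma. PECAM1 (-0.03) and MCAM (0.07), which encode the sorting antigens, did not pass there either. Since these antigens did not separate the libraries, the comparison cannot show whether endothelial cells hold more of the scavenger transcripts than other liver cells. The log2 difference within numbers 16 to 23 was 0.07 for STAB2 (95% interval -0.65 to 0.79), -0.04 for MRC1 (-0.30 to 0.21), 0.00 for CLEC4G (-0.33 to 0.32), 0.06 for OIT3 (-0.37 to 0.48), 0.04 for STAB1 (-0.38 to 0.46) and -0.35 for LYVE1 (-1.51 to 0.82). The upper bound was at or under 0.48 for MRC1, CLEC4G, OIT3 and STAB1, whereas the interval of LYVE1 was wide. This fit held no term for run, so its estimates and intervals also carry differences between runs 15 to 19 and 20 to 23. For LYVE1 the liver means of these runs were 4958 and 2168 normalized counts.

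The other sorts gave the same picture. CD45+ against CD45-/EpCAM+ libraries gave 0 of 6 and 0% of all genes called, with 214 genes at an unadjusted p under 0.05 by limma, and differences from -0.20 for LYVE1 to 0.11 for CLEC4G. PTPRC (-0.24) and EPCAM (0.09) did not pass there either, so that comparison has the same limit. CD45-/EpCAM- against CD45-/EpCAM+ libraries gave 0 of 6 (2.80% of all genes), from -0.50 for STAB2 to 0.31 for CLEC4G. With only 2 libraries in the CD45-/EpCAM- group these intervals reach about 1 log2 unit or more to either side of 0.

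The level of the scavenger genes in liver instead differed between runs. MRC1 is given first, and run 15 to 19 is where its libraries lay closest together. In run 15 to 19, the CD31+, CD146+, CD45+ and CD45-/EpCAM+ libraries held 19676, 19698, 18863 and 19342 normalized counts. In run 2 to 5, the CD45+, CD45-/EpCAM+ and CD45-/EpCAM- libraries held 5991, 5706 and 6400. The libraries of 4 sorts in run 15 to 19 thus lay within 1.04-fold of each other, while CD45+ libraries and CD45-/EpCAM+ libraries of these runs were each more than 3-fold apart. The highest mean of a run exceeded the lowest by 6.62-fold for STAB2, 3.77-fold for MRC1, 3.63-fold for OIT3, 3.53-fold for STAB1, 2.56-fold for CLEC4G and 2.55-fold for LYVE1. The largest ratio between libraries of a run was 1.97 for STAB2, 1.96 for MRC1, 1.59 for OIT3, 1.56 for STAB1, 2.09 for CLEC4G and 1.76 for LYVE1.

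In a limma fit over the 15 liver libraries with sort and run as terms, the run F test called 6 of 6 scavenger genes, against 34.1% of all genes. Adjusted p in that limma fit lay between 3.8e-04 for OIT3 and 0.00899 for CLEC4G. The sort F test of the same limma fit called 0 of 6, against 0.212% of all genes or 33 genes (13.8% at an unadjusted p under 0.05), with adjusted p from 0.517 to 0.829. PTPRC, EPCAM, PECAM1 and MCAM, which encode the sorting antigens, were not called by it either (adjusted p from 0.0686 to 0.478). The sort F test therefore cannot show whether the scavenger genes differ between cell types within liver. The run F test also called 18 of 18 pan-endothelial markers, 10 of 10 macrophage markers, 11 of 15 other sinusoidal genes and 4 of 8 hepatocyte markers. Both F tests were added after the run pattern had been seen. Donor, day and processing cannot be told apart within a run, since the labels describe none of them.

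Pooling the runs into later and earlier numbers gave no call. Over CD45+ and CD45-/EpCAM+ liver libraries, numbers 16 to 23 against 3 to 14, 0 of 6 scavenger genes were called (4.76% of all genes), with log2 differences from 0.25 for OIT3 to 0.97 for MRC1. Run 11 to 14, whose means were the highest for all 6 genes, falls in the earlier set together with runs 2 to 5 and 7 to 9, whose means were the lowest for 5 of them.

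LYVE1 and STAB2 differed in opposite directions between the last runs. STAB2 had a mean of 22730 ± 1781 normalized counts (SD, n = 4) in the liver libraries of run 15 to 19 and 36524 ± 7749 (SD, n = 3) in run 20 to 23. LYVE1 went the other way, from 4958 ± 138 to 2168 ± 614 in the same libraries. Every liver library of run 20 to 23 was above every liver library of run 15 to 19 for STAB2 and below all of them for LYVE1. Of the other genes, STAB1 had a mean of 13046 in the first of these runs and 16315 in the second, OIT3 of 6564 and 8669, CLEC4G of 7684 and 8803, and MRC1 of 19395 and 19236. The ratio of STAB2 to LYVE1 counts was 4.58 on average in run 15 to 19 and 17.1 in run 20 to 23, 3.54 in run 2 to 5, 4.93 in run 7 to 9 and 9.05 in run 11 to 14. The counts are not per transcript length, so such a ratio can be compared between libraries but not read as a ratio of molecules. The change of this ratio between runs was not tested.

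Ratios to STAB1 separated the tissues in the same way as the levels. STAB2 to STAB1 was 0.0115 to 0.218 in pBTSC and 0.668 to 2.30 in liver libraries, CLEC4G to STAB1 was 0.00211 to 0.0728 and 0.311 to 0.702, and OIT3 to STAB1 was 0.00354 to 0.0702 and 0.470 to 0.697. MRC1 to STAB1 was 0.225 to 0.451 in pBTSC and 0.807 to 1.60 in liver libraries. LYVE1 to STAB1 overlapped, at 0.177 to 0.326 and 0.109 to 0.409. The first 4 genes were thus lower in pBTSCs even relative to STAB1, and LYVE1 was not.

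The genes whose pattern was most like each scavenger gene were found by Pearson's r on log2(normalized count + 1) over the 17 libraries of at least 2000000 reads, which share runs and the split between liver and pBTSC. For STAB2 they were RGN, GATA4 and GRB14 (r = 0.98 each). For CLEC4G they were TF, BHMT2 and TTR and for OIT3 TF, RGN and NELL2 (r = 0.98 each), several of them hepatocyte genes. For MRC1 they were SIGLEC1, the macrophage sialoadhesin (r = 0.99), SYT2 and CX3CR1 (0.98 each). For STAB1 they were TPP1, a lysosomal peptidase, SLC31A2 (0.97 each) and BEND7 (0.95), and for LYVE1 HTR2C (0.95), GPR182 (0.94) and BMPER (0.93). Over the 13 liver libraries of that depth alone, SIGLEC1 was again among the 3 genes nearest to MRC1 (r = 0.99), and STAB2 was nearest to LRP4, SLC36A1 and ARHGAP17 (0.98 each). In these liver libraries none of the hepatocyte genes above was among the nearest 3 of CLEC4G, which were NPL (0.98), PRCP (0.97) and HOXA5 (0.96), or of OIT3, which were SNAP23 (0.98), LY9 and PRIMA1 (0.97 each). The pairs among the 6 scavenger genes in these liver libraries had r from 0.64 to 0.96, lowest for LYVE1 with STAB2.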

How the data were processed

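Poly(A) RNA of 5 pBTSC and 15 sorted liver preparations was extracted with RNeasy and made into TruSeq Stranded libraries. The authors deposited normalized counts per gene and library, a signal of 0 or more, in 1 table that also holds the mean over all libraries. The submitters' processing notes name STAR, Salmon and DESeq2. Versions, genome build and annotation are not given in the sources used here, so no coordinates are printed. Of 25764 genes, 7782 (30.2%) have no name.

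The value of 1 read was taken from the most frequent low value of each library. Only 60.2% to 84.2% of low values lay within 0.05 reads of a whole number, so no count test was run. limma 3.58.1 in R 4.3.3 (eBayes with trend) was fitted to log2(normalized count + 1) of all 6 labelled groups, over 15576 genes with at least 10 in at least 2 libraries, with Benjamini-Hochberg adjustment over all of them. Comparisons within numbers 16 to 23, by library number, and by F test used only their own libraries. Fold changes on this scale understate those of low genes. The step was tested on simulated data. Tables and figures used Python 3.11.15, pandas 2.3.3, numpy 2.4.6 and matplotlib 3.10.9.

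The members and gene lists were chosen with earlier results of these data known. Named genes are the members, the 3 genes most like each, the sorting antigens and up to 4 called genes a list with the largest differences. Other list genes (GATA4, CRHBP, LYZ, NKG7, CDH5, KDR, TEK, CLTC, PROX1, RELN, COLEC12, CD209 and MRC2) were named after their values were seen. Alternatives were other pseudocounts, filters, scalings, weights and fits, and each library left out in turn. Within a group the closest libraries differed by 1.76 times counting noise, and each library counted once. Libraries of different sorts in a run could lie closer, at 1.24 times for S21 and S22 and 1.68 times for S18 and S19. Liver libraries of a run may therefore not be independent.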

Additional observations from a re-analysis of the deposited data

Results flagged for a closer look

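Of 18 sets of values of 1 scavenger gene in 1 group of 4 or 5 libraries, 3 held a library far from the others by Dixon's criterion, which chance alone meets in about 1 set of 20. All 3 were pBTSC library S20 among 5 libraries. Its STAB2 value was 987 normalized counts, with a gap to the nearest library of 0.881 of the whole range. Its CLEC4G value was 330, with a gap of 0.906, and its OIT3 value 318, with a gap of 0.887. The 3 values come from 1 library and are not independent.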

How the results depend on the processing

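Against pBTSCs, the mean of the liver groups gave 6 of 6 scavenger genes called in each of 30 alternatives, with log2 differences from 6.74 to 7.88 for STAB2 and from 1.22 to 1.67 for STAB1. With each library left out in turn, 5 to 6 genes were called against the endothelial sorts, CD45-/EpCAM+ and CD45+ cells, and 4 to 6 against CD45-/EpCAM- cells. No result changed direction past its threshold. Between later and earlier library numbers, array weights gave 1 call in place of 0, MRC1 at 1.35 (limma adjusted p = 0.00327), and the cause was not tested. The run F test called 6 and the sort F test 0 scavenger genes in each of 24 alternatives.

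Counts over all genes moved by more than 1.5 times in some comparisons. Endothelial sorts against the other liver groups gave 1086 genes as fitted, 0 with array weights and 0 to 2052 (without S17) with a library left out. CD45-/EpCAM- against CD45-/EpCAM+ cells gave 436 genes, 0 with only these groups fitted, 879 without the shallow libraries, and 0 to 1478 (without S14) with a library left out. CD45-/EpCAM- against pBTSCs gave 5698 genes and 3390 without S5. The comparison by library number gave 742 genes, 2051 with array weights and 64 without S19. The run F test gave 5311 genes, 9998 with array weights and 3377 without S19, and the sort F test 33 genes, 179 with a pseudocount of 10, 0 with no filter and up to 1642 without S17. Leaving out a library of a group of 2 leaves 1, which is assumed to vary like the other groups.

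No analysis paired by donor was possible because the sources used here do not give the donor of each liver library. A fit blocked by run called 6 of 6 scavenger genes in each comparison of liver cells with pBTSCs, and the comparison by library number could not be fitted with it. Depth limits CLEC4G and OIT3 in S15.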
